A study of Mus musculus with 4 samples.

Results

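The genes examined here were NRF2 and oxidative stress genes: the transcription factor gene Nfe2l2, which encodes NRF2, its inhibitor Keap1, and 7 genes that NRF2 is known to switch on, Hmox1, Nqo1, Gclc, Gclm, Txnrd1, Srxn1 and Gsr. All probes carrying one of these 9 gene symbols were taken, 11 probes in all, out of 24561 genes with a symbol on the array. Hmox1 and Gsr had 2 probes each and the others 1. Each probe was printed on 1 spot, and every one of the 11 was well above background on all 4 arrays, so no gene was lost to a filter on dim probes.

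The samples were 4 lines of L1210, a mouse lymphocytic leukemia cell line of DBA subline 212 origin. L1210-Fbxw11a, L1210-Fbxw11c and L1210-Fbxw11d each overexpressed one transcript variant of Fbxw11, and L1210-control had no such variant. Fbxw11a is the longest variant named in the study's text, Fbxw11c lacks one of a pair of exons that it carries, and Fbxw11d lacks both. All 4 lines had been infected with virus and sorted for GFP, and all were grown in the same medium with serum and without further treatment. Whether a line was a pool of sorted cells or 1 clone is not given in the sources used here. RNA of each line was hybridised to 1 array labelled with Cy3, so differences between lines cannot be set against a spread between replicates, and p-values are not given. They are called the control, Fbxw11a, Fbxw11c and Fbxw11d lines below.

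NRF2 is the main transcriptional regulator of the cell's answer to oxidants and electrophiles. KEAP1 holds it in the cytoplasm and hands it to a CUL3 ubiquitin ligase, and the F-box proteins of the beta-TrCP family, to which the product of Fbxw11 belongs, can mark NRF2 phosphorylated by GSK3 for destruction as well. NRF2 that escapes both pairs with a small MAF protein on antioxidant response elements in the DNA, and raises genes for the synthesis and recycling of glutathione, for the thioredoxin system and for detoxification. The arrays measured RNA, not the NRF2 protein.

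The antioxidant response element is shown here as the letters TGACNNNGC, because this is the pattern through which NRF2 and its MAF partners are known to act on the genes described below. The RefSeq promoter windows of GRCm38.p6, from 250 bases before to 50 after a gene's start, covered 6 of the 9 genes in 8 windows. No window was used for Hmox1, Gclc and Gsr. Searched on both strands, 4 of the 8 windows held the letters, as did 12.4% of all 32851 windows. They stood in the windows of Nfe2l2, Gclm and Srxn1 and in 1 of the 3 windows of Txnrd1, and not in those of Keap1 and Nqo1. The sequences around the match follow, 5′ to 3′ on the gene's strand with the match in capitals, for Nfe2l2 from the minus strand of chr2:75704854-75704913, for Gclm from the plus strand of chr3:122245397-122245456, for Txnrd1 from the plus strand of chr10:82859088-82859147 and for Srxn1 from the plus strand of chr2:152105541-152105570. In Nfe2l2 the match reads along the gene's strand, and in the other 3 it lies on the opposite strand and is printed as its reverse complement. Its first printed base lies at -240 from the start in Nfe2l2, -134 in Gclm, -92 in Txnrd1 and 29 in Srxn1.
Nfe2l2: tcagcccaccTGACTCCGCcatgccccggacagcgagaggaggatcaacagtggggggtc
Gclm: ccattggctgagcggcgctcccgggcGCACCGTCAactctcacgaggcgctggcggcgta
Txnrd1: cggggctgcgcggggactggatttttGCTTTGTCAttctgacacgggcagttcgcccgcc
Srxn1: ggcagtgggcaGCTAGGTCAgagtgagaca
A match is a description of the letters and does not show that a factor binds there.

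Signals are linear intensities. Each array was divided by the 75th percentile of its gene spots, and the values were set to the control array's scale. These percentiles were 621.3 to 672.5 on the arrays of slide 1, which held the control line, the Fbxw11a line and the Fbxw11c line, and 952.3 on the Fbxw11d array, which lay alone on slide 2, so its line and its slide cannot be told apart. Probes well above background made up 62.5% to 68.7% of all probes, and no gene spot was saturated. The scaled signals of 8 added E1A spike-in RNAs were higher than in the control line by 0.13 (SD 0.05 over spike-ins) on the log2 scale in the Fbxw11a line and by 0.16 (SD 0.10) in the Fbxw11c line, and differed by -0.58 (SD 0.09) in the Fbxw11d line. Differences are therefore relative to the bulk of the genes on an array. Fbxw11 itself gave 13150 in the control line, 16340 in the Fbxw11a line, 15900 in the Fbxw11c line and 13430 in the Fbxw11d line on its brighter probe, log2 ratios of 0.31, 0.27 and 0.03. Its other probe gave log2 ratios of 0.21, 0.22 and 0.18, and whether either probe lies within the introduced sequence was not tested, so neither is a check of the overexpression.

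Of the L1210 identity markers, 8 of 12 lymphoid and B lineage genes were well above background on each array, with Cd79b, Ebf1, Igll1 and Ms4a1 not so on any, and Blnk gave 18270 to 23140 of a summed scaled signal of 18950 to 23790. Of the 10 T lineage genes 6 to 7 were, with Cd3d, Cd3g and Thy1 not so on any. Of the 12 myeloid genes 10 to 11 were, with Lyz2 not so on any, and their summed scaled signal was 22460 in the control line, 22640 in the Fbxw11a line, 18750 in the Fbxw11c line and 19560 in the Fbxw11d line. Of the 8 fibroblast and stromal genes 4 to 6 were, with a summed signal of 1238, 2774, 4122 and 3997 in the same order, most of it from Col1a2. Fewer cells of a type and less RNA per cell cannot be told apart in such samples.

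None of the 9 genes changed by 2-fold or more in any of the 6 comparisons between lines. On the scale of the spike-ins, which moved all genes of the Fbxw11d line, Gclm passed 2-fold in the Fbxw11d line against the control line (log2 ratio of 1.1) and Gclm and Hmox1 in the Fbxw11a line against the Fbxw11d line (-1.25 and -1.03), where 12.1% and 20.3% of all genes passed. A change of that size was seen for 4.44% of all genes compared at the percentile scaling in the Fbxw11a line against the control line, 3.87% in the Fbxw11c line and 5.78% in the Fbxw11d line. Between the variants it was seen for 4.23% of genes in the Fbxw11a line against the Fbxw11c line, 5.97% in the Fbxw11a line against the Fbxw11d line and 4.22% in the Fbxw11c line against the Fbxw11d line. Dim genes make up most of these, since among the 7713 genes at least as bright as the dimmest of the 9 the shares were 0.415%, 0.298% and 0.48% against the control line. At 1.5-fold or more the count against the control line was 0 of 9 in all 3 lines at the percentile scaling, where 10.8%, 9.86% and 14.7% of all genes and 1.83%, 1.72% and 2.48% of the bright genes passed in the Fbxw11a line, the Fbxw11c line and the Fbxw11d line. In the Fbxw11d line it was 1 with median centring, Gclm at 0.73 on the log2 scale, and 5 on the spike-in scale, Keap1, Hmox1, Gclc, Gclm and Txnrd1, where 19.5% and 56% of all genes passed. Between variants 1 gene, Nqo1, passed 1.5-fold in the Fbxw11a line against the Fbxw11c line (10.8% of all genes) and in the Fbxw11a line against the Fbxw11d line (15.9%), and none in the Fbxw11c line against the Fbxw11d line (12.4%). Of the bright genes 1.4%, 2.81% and 1.01% passed in these comparisons. Nqo1 no longer passed with the normexp background correction, at 0.43 and 0.42 on the log2 scale, or with median centring, at 0.54 and 0.41. With median centring Gclm passed in the Fbxw11a line against the Fbxw11d line, at -0.75. On the spike-in scale 7 of the 9 genes were past 1.5-fold in the Fbxw11a line against the Fbxw11d line, all but Nqo1 and Srxn1, and 8 in the Fbxw11c line against the Fbxw11d line, all but Srxn1, where 67.8% and 72.6% of all genes passed. At the percentile scaling, with so few bright genes passing, a count of 0 among 9 lies near the background and is not a result about these genes.

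**Figure D1:**
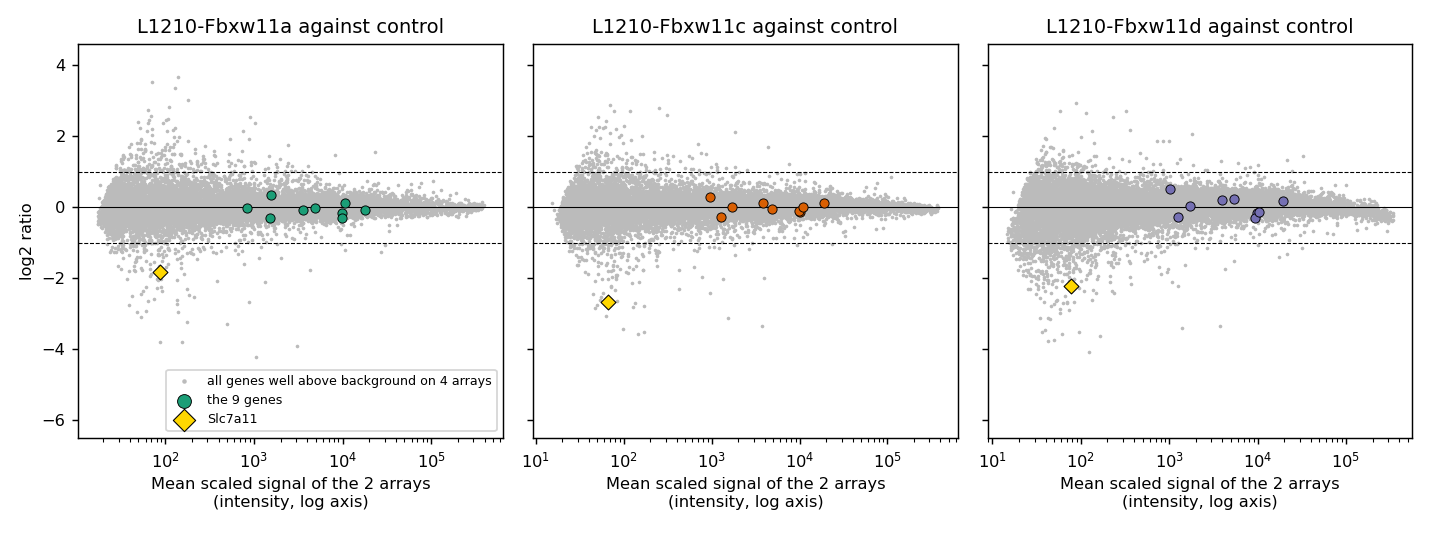
Log2 ratio to the control line (vertical axis) against the mean scaled signal of the 2 arrays (horizontal log axis, intensity) for the Fbxw11a line, the Fbxw11c line and the Fbxw11d line, with grey points for genes well above background on all 4 arrays, coloured circles for the 9 NRF2 and oxidative stress genes and a gold diamond for Slc7a11. The 9 genes lie between -0.31 and 0.52, inside the dashed lines at 2-fold, and Slc7a11 lies between -2.67 and -1.84.

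The size of an error was taken from the arrays themselves. For 399 probes printed on 10 spots each, the SD between single spots of a log2 ratio was computed from the 50 probes nearest in brightness, and came to 0.08 to 0.12 for the 9 genes with a median of 0.10. The scanner software's own error model gave 0.20 for every one of their ratios. Of the 27 ratios to the control line, 12 were above 0 and 15 below, 8 were larger than 2 SDs between spots, and 1 was larger than 2 times the scanner error. These errors hold nothing of the spread between cultures. Among the bright genes 53.6%, 60.9% and 63.9% were higher than in the control line in the Fbxw11a, Fbxw11c and Fbxw11d lines. The log2 ratios of the bright genes had an SD over genes of 0.21, 0.21 and 0.25. Their share beyond 2 SDs between spots was not computed, so the 8 ratios cannot be set against a background. The median log2 ratio of the 9 genes was -0.07 in the Fbxw11a line, 0.00 in the Fbxw11c line and 0.02 in the Fbxw11d line, beside 0.01, 0.02 and 0.05 over all genes compared.

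**Figure D2:**
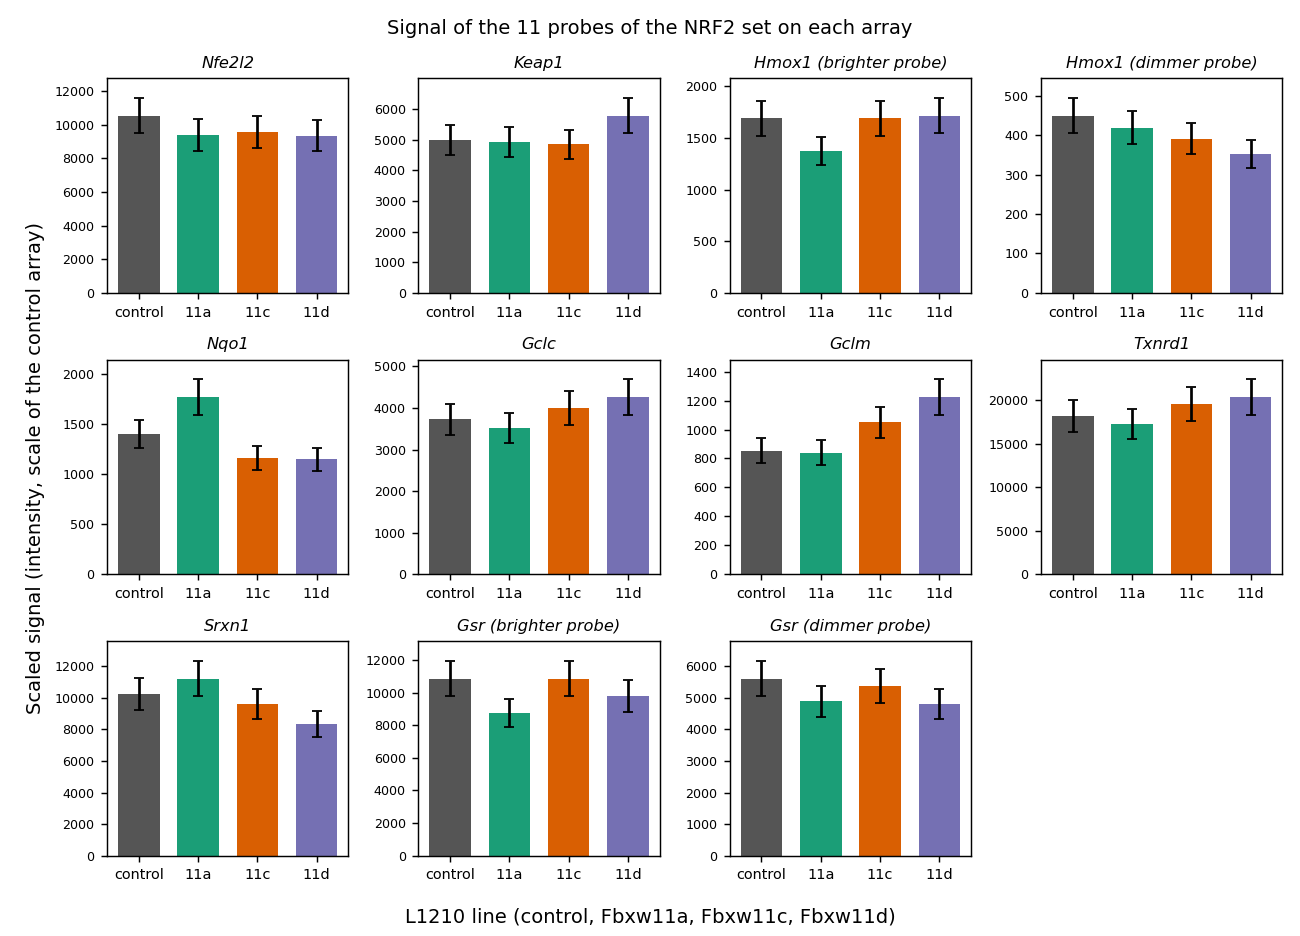
Scaled signal (intensity, vertical axis from 0) of each of the 11 probes in the control line, the Fbxw11a line (11a), the Fbxw11c line (11c) and the Fbxw11d line (11d), 1 array each, with bars for the scanner's error of 1 spot. Nqo1 is highest in the Fbxw11a line at 1770 and Gclm highest in the Fbxw11d line at 1224, while the errors of all 4 lines overlap for Nfe2l2, Keap1, Gclc and Txnrd1.

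Nfe2l2 encodes NRF2, and its probe (mm9, chr2:75513771-75513830, minus strand) gave 10550 in the control line, 9383 in the Fbxw11a line, 9572 in the Fbxw11c line and 9363 in the Fbxw11d line. The control line was the highest and the 3 variant lines lay close together below it. The log2 ratios of -0.17, -0.14 and -0.17 were each within 2 SDs between spots (SD 0.09, 0.08 and 0.11). By the brightest probe, Nfe2l2 was the only one of the 9 genes whose ratio had the same sign in all 3 lines. The dimmer probes of Hmox1 and Gsr were below the control line in all 3 lines as well, and so were Hmox1 and Gsr with quantile normalization, the authors' values or the mean of their probes. For Nfe2l2 in the Fbxw11d line the ratio turned to 0.04 when arrays were centred on their median and to 0.41 when scaled on the spike-ins. Its range over the 4 lines was 1.13-fold, and 77.2% of genes as bright had a larger range.

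Keap1 encodes the adaptor that binds NRF2 and delivers it to the CUL3 ligase. Its probe spans chr9:21035292-21035732 (mm9, minus strand), 441 bases for a 60-base probe, so it crosses a gap in the genomic coordinates. It gave 4980 in the control line, 4908 in the Fbxw11a line, 4839 in the Fbxw11c line and 5779 in the Fbxw11d line. The Fbxw11d line was the highest and the other 3 could not be ordered beyond the spread between spots. The log2 ratios were -0.02, -0.04 and 0.21 (SD 0.09, 0.08 and 0.11), none larger than 2 SDs between spots. In the Fbxw11d line the ratio ran from 0.14 to 0.43 over the other processing settings and was 0.80 on the spike-in scale. It was larger than 2 SDs between spots with median centring (0.43) and on the spike-in scale.

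Gclc and Gclm encode the catalytic and the modifier subunit of glutamate-cysteine ligase, the first and rate-limiting step of glutathione synthesis. The Gclc probe (mm9, chr9:77641296-77641355, plus strand) gave 3725 in the control line, 3523 in the Fbxw11a line, 4002 in the Fbxw11c line and 4263 in the Fbxw11d line. No neighbouring pair in this order was separated by more than 2 SDs between spots, and the log2 ratios were -0.08, 0.10 and 0.19. The Gclm probe, which spans chr3:121962174-121964809 on the plus strand and thus a gap of the genomic coordinates, gave 853.6, 840.3, 1049 and 1224 in the same order of lines. The control line and the Fbxw11a line lay together, the Fbxw11c line above them by more than 2 SDs between spots, and the Fbxw11d line highest. The log2 ratios were -0.02 (SD 0.10), 0.30 (SD 0.09) and 0.52 (SD 0.11), so that Gclm in the Fbxw11d line was 1.43-fold higher than in the control line. This was the only ratio to the control line beyond 2 times the scanner error, and over the other processing settings it ran from 0.43 to 0.73. On the spike-in scale it was 1.1, past 2-fold. Gclm exceeded Gclc in log2 ratio by 0.06 (SD 0.13) in the Fbxw11a line, 0.19 (SD 0.12) in the Fbxw11c line and 0.33 (SD 0.16) in the Fbxw11d line, a difference that 1 scaling factor per array cannot move. It passed 2 SDs between spots only in the Fbxw11d line.

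Gsr encodes glutathione reductase, which returns oxidised glutathione to its reduced form. Its brighter probe (mm9, chr8:34808488-34808547, plus strand) gave 10850 in the control line, 8750 in the Fbxw11a line, 10860 in the Fbxw11c line and 9775 in the Fbxw11d line. The Fbxw11a line was the lowest, and the control line and the Fbxw11c line differed by 0.00 on the log2 scale. The log2 ratios were -0.31 (SD 0.09), 0.00 (SD 0.08) and -0.15 (SD 0.11), and the first was larger than 2 SDs between spots. Its dimmer probe (chr8:34808413-34808472) gave 5612, 4900, 5369 and 4797, or -0.20, -0.06 and -0.23. The probes differed in log2 ratio by -0.11, 0.07 and 0.08, each within 2 SDs between spots. The log2 ratio of the brighter probe in the Fbxw11d line was 0.06 when arrays were centred on the median and 0.43 on the spike-in scale.

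Txnrd1 encodes the cytoplasmic thioredoxin reductase, which keeps thioredoxin reduced. The probe (mm9, chr10:82360230-82360289, plus strand) gave 18230 in the control line, 17310 in the Fbxw11a line, 19620 in the Fbxw11c line and 20390 in the Fbxw11d line. The lines stood in the same order as for Gclc and Gclm, but no step between neighbours passed 2 SDs between spots. Against the control line its log2 ratios were -0.07, 0.11 and 0.16 (SD 0.08, 0.08 and 0.11).

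Srxn1 encodes sulfiredoxin, which repairs overoxidised peroxiredoxins. The probe (mm9, chr2:151937009-151937068, plus strand) gave 10260 in the control line, 11220 in the Fbxw11a line, 9589 in the Fbxw11c line and 8328 in the Fbxw11d line. The Fbxw11a line was the highest and the Fbxw11d line the lowest. The log2 ratios were 0.13 (SD 0.09), -0.10 (SD 0.08) and -0.30 (SD 0.11), and only the last was larger than 2 SDs between spots. The Fbxw11a line exceeded the Fbxw11d line by 0.43 (SD 0.12), or 1.35-fold. With arrays centred on the median the ratio in the Fbxw11d line was -0.09 and the difference between these variants 0.22, both within 2 SDs between spots. The spike-in scale turned the sign in the Fbxw11d line to 0.28 and that of the difference between these variants to -0.28.

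Hmox1 encodes heme oxygenase, which breaks heme down to biliverdin, iron and carbon monoxide. Its brighter probe (mm9, chr8:77624207-77624266, plus strand) starts at base 1290 of the transcript and gave 1691 in the control line, 1374 in the Fbxw11a line, 1694 in the Fbxw11c line and 1717 in the Fbxw11d line. The Fbxw11a line lay below the other 3, which were together. On the log2 scale the ratios to control were -0.30 (SD 0.09), 0.00 (SD 0.09) and 0.02 (SD 0.12). The dimmer probe (chr8:77620797-77620856) starts at base 324 and gave 449.4, 418.4, 391.3 and 351.6, a different order with the control line highest and the Fbxw11d line lowest. Its log2 ratios were -0.10 (SD 0.11), -0.20 (SD 0.09) and -0.35 (SD 0.12). The brighter probe minus the dimmer was -0.20 (SD 0.14) in the Fbxw11a line, 0.20 (SD 0.13) in the Fbxw11c line and 0.38 (SD 0.17) in the Fbxw11d line, so the probes disagreed by more than 2 SDs between spots in the Fbxw11d line and no single value can be given for Hmox1 there.

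Nqo1 encodes a quinone reductase and is among the most widely used readouts of NRF2. Its probe (mm9, chr8:109912440-109912499, minus strand) gave 1398 in the control line, 1770 in the Fbxw11a line, 1162 in the Fbxw11c line and 1150 in the Fbxw11d line. The Fbxw11a line lay above the control line, and the Fbxw11c line and the Fbxw11d line lay together below it. Both steps were larger than 2 SDs between spots. The log2 ratios to the control line were 0.34 (SD 0.09), -0.27 (SD 0.09) and -0.28 (SD 0.11), none beyond 2 times the scanner error. Against the Fbxw11c line and the Fbxw11d line, the Fbxw11a line was 1.52-fold and 1.54-fold higher, both beyond that error. The range over the lines was 1.54-fold, and 4.8% of genes as bright had a wider one. It was the widest of the 9 genes at this scaling, while with normexp, median centring and the spike-in scale that of Gclm was wider. With normexp the ratios to the control line were 0.27, -0.16 and -0.14. The steps below the control line were then within 2 of the SDs given above, which are those of the percentile scaling. In the Fbxw11d line the ratio was -0.07 with arrays centred on the median and 0.30 on the spike-in scale, where the Fbxw11a line differed from the Fbxw11d line by -0.09 and the Fbxw11c line from the Fbxw11d line by -0.72, past 1.5-fold. The summed signal of the myeloid marker genes was higher in the control line and the Fbxw11a line than in the other 2 lines. It was 22460 in the control line and 22640 in the Fbxw11a line, between which Nqo1 differed by 0.34. The members of this list did not move as one. Ly6g gave 5182 in the control line, 7634 in the Fbxw11a line, 5557 in the Fbxw11c line and 5788 in the Fbxw11d line. S100a8 gave 805.5, 930.8, 450.1 and 447.7 in the same order, so its lines ranked as for Nqo1. Cd68 gave 7275, 5634, 4572 and 5361. These members were picked with their values in view. The part of the myeloid marker signal in the Nqo1 values was not tested.

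**Figure D3:**
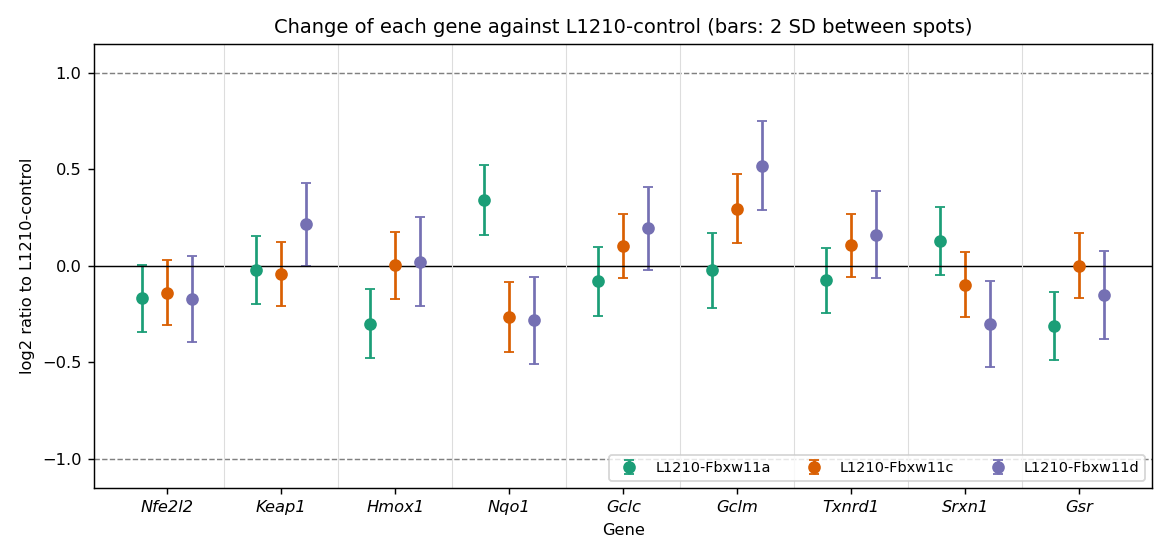
Log2 ratio to the control line (vertical axis) of each of the 9 genes by its brightest probe in the Fbxw11a line, the Fbxw11c line and the Fbxw11d line, with bars of 2 SDs between spots and dashed lines at 2-fold. Nqo1 lies above 0 in the Fbxw11a line (0.34) and below it in the other lines (-0.27 and -0.28), Gclm rises to 0.52 in the Fbxw11d line, and Nfe2l2 lies at -0.17, -0.14 and -0.17.

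The 9 genes did not share one order of lines. For Gclm the Fbxw11c line and the Fbxw11d line lay above the other lines, and for Nqo1 the Fbxw11a line and the control line did. Gclc, Txnrd1 and the brighter Hmox1 probe had the same order of means as Gclm, and Srxn1 the same as Nqo1. Of the steps between neighbours in these genes, only that of Hmox1 from the control line down to the Fbxw11a line passed 2 SDs between spots. On the spike-in scale the Fbxw11d line was the highest for all 9 genes, and in the Fbxw11c line Gclc and Txnrd1 lay below the control line, both at -0.05. The log2 ratio of Nqo1 minus that of the brighter Hmox1 probe, which 1 scaling factor per array cannot move, was 0.64 (SD 0.13) in the Fbxw11a line, -0.27 (SD 0.13) in the Fbxw11c line and -0.30 (SD 0.16) in the Fbxw11d line. With the dimmer Hmox1 probe it was 0.44 (SD 0.14), -0.07 (SD 0.13) and 0.07 (SD 0.17), so that only the value of the Fbxw11a line was beyond 2 SDs between spots with either probe. The log2 ratio of Srxn1 minus that of Txnrd1 was 0.20 (SD 0.12), -0.20 (SD 0.12) and -0.46 (SD 0.16).

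The wider pathway was taken from 3 lists written from general knowledge: 16 regulators and partners of NRF2, 31 of its other target genes and 30 other antioxidant enzymes. Of these 77 genes 76 were on the array, 69 were well above background on all 4 arrays, 6 on none and 1, Sod3, on some. Of the 70 genes compared, 0 were higher and 2 lower by 2-fold or more in the Fbxw11a line, 0 and 1 in the Fbxw11c line, and 0 and 1 in the Fbxw11d line. These are 2.86%, 1.43% and 1.43% of the genes compared, each below the share over all genes. The shares of bright genes are no match for them. The genes that passed, Slc7a11 and Sod3, gave 167.5 and 88.2 in the control line, where Gclm gave 853.6. The median log2 ratio of the 70 was 0.02, -0.05 and -0.01.

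Slc7a11 encodes the cystine and glutamate exchanger that brings in cystine for glutathione synthesis, and of these lists it alone was lower by 2-fold or more in all 3 variant lines. Its 1 probe (mm9, chr3:50169700-50169759) gave 167.5 in the control line, 46.8 in the Fbxw11a line, 26.3 in the Fbxw11c line and 36.0 in the Fbxw11d line, well above background on each array. The control line was the highest by a wide margin. Slc7a11 was 3.58-fold lower in the Fbxw11a line, 6.37-fold lower in the Fbxw11c line and 4.66-fold lower in the Fbxw11d line, log2 ratios of -1.84 (SD 0.28), -2.67 (SD 0.51) and -2.22 (SD 0.36). The ratios stayed past 2-fold under every alternative tried, but at this dim signal the background correction by normexp brought them to -1.08, -1.52 and -1.55. All 3 ratios share the single array of the control line.

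Sod3 encodes the extracellular superoxide dismutase. Its probe (mm9, chr5:52760685-52760744) gave 88.2 in the control line, 60.0 in the Fbxw11c line and 54.6 in the Fbxw11d line, and in the Fbxw11a line it was not well above background, at 10.96. It was therefore at least 6.14-fold lower in the Fbxw11a line, while the log2 ratios of the others, -0.56 (SD 0.34) and -0.69 (SD 0.35), did not reach 2-fold. With the normexp background correction the log2 ratio in the Fbxw11a line was -1.07, against -2.62 for the bound given here.

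Among the regulators and partners none changed by 2-fold. Of the 14 compared, 10 were lower than in the control line in the Fbxw11a line, 9 in the Fbxw11c line and 10 in the Fbxw11d line, where 5 were lower with arrays centred on the median and 1 on the spike-in scale. Of the bright genes 53.6%, 60.9% and 63.9% were higher than in the control line in the Fbxw11a, Fbxw11c and Fbxw11d lines. Not all of the 14 were that bright. The counts all share the single array of the control line and were not tested. The median log2 ratios of the 14 were -0.08, -0.09 and -0.07. The largest of these differences was that of Sqstm1, which encodes p62, a receptor of selective autophagy that binds KEAP1. Picked after its values were seen, its brightest probe gave 3032 in the control line, 2364 in the Fbxw11a line, 2091 in the Fbxw11c line and 1858 in the Fbxw11d line. All 3 variant lines were below the control line, with log2 ratios of -0.36 (SD 0.09), -0.54 (SD 0.09) and -0.71 (SD 0.11). A dimmer probe gave -0.40, -0.38 and -0.80. The ratio of the brightest probe in the Fbxw11d line was -0.47 with the normexp background correction, -0.50 with arrays centred on the median and -0.13 on the spike-in scale. Bach2 and Nfe2 were not well above background on any array.

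Some glutathione S-transferase genes, which couple glutathione to electrophiles, are given for their range over the lines, and they too were picked with their values in view. Gsta2 gave 50570 in the control line, 70440 in the Fbxw11a line, 34380 in the Fbxw11c line and 41360 in the Fbxw11d line. Like Nqo1 it was highest in the Fbxw11a line, with the control line next and the other variants below. Its log2 ratios were 0.48 (SD 0.08), -0.56 (SD 0.08) and -0.29 (SD 0.11), and the Fbxw11a line exceeded the Fbxw11c line by 1.03. In the Fbxw11d line the ratio was 0.29 on the spike-in scale. A second order appeared in Gstm1, whose brightest probe gave 431.5 in the control line, 686.1 in the Fbxw11a line, 446.3 in the Fbxw11c line and 860.8 in the Fbxw11d line. The Fbxw11d line and the Fbxw11a line were high, and the Fbxw11c line was with the control line. Its log2 ratios were 0.67 (SD 0.10), 0.05 (SD 0.09) and 0.996 (SD 0.12), the last a 1.995-fold difference just short of 2-fold. It passed 2-fold with median centring (1.21), with the mean of the probes (1.11) and on the spike-in scale (1.58). The deposited coordinates place this probe on chromosome 5 (mm9, chr5:117082490-117082549), and the other Gstm1 probe, with log2 ratios of 0.51, -0.02 and 1.23, on chromosome 3. Gstm3 gave 0.51, 0.19 and 0.60 on its brightest probe. Its other probe was not well above background in the control line, at 5.6, and gave 32.9 in the Fbxw11a line, so that with probes averaged the log2 ratio there was 1.53. Members of this family have near-identical copies, which such probes may not separate.

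**Figure D4:**
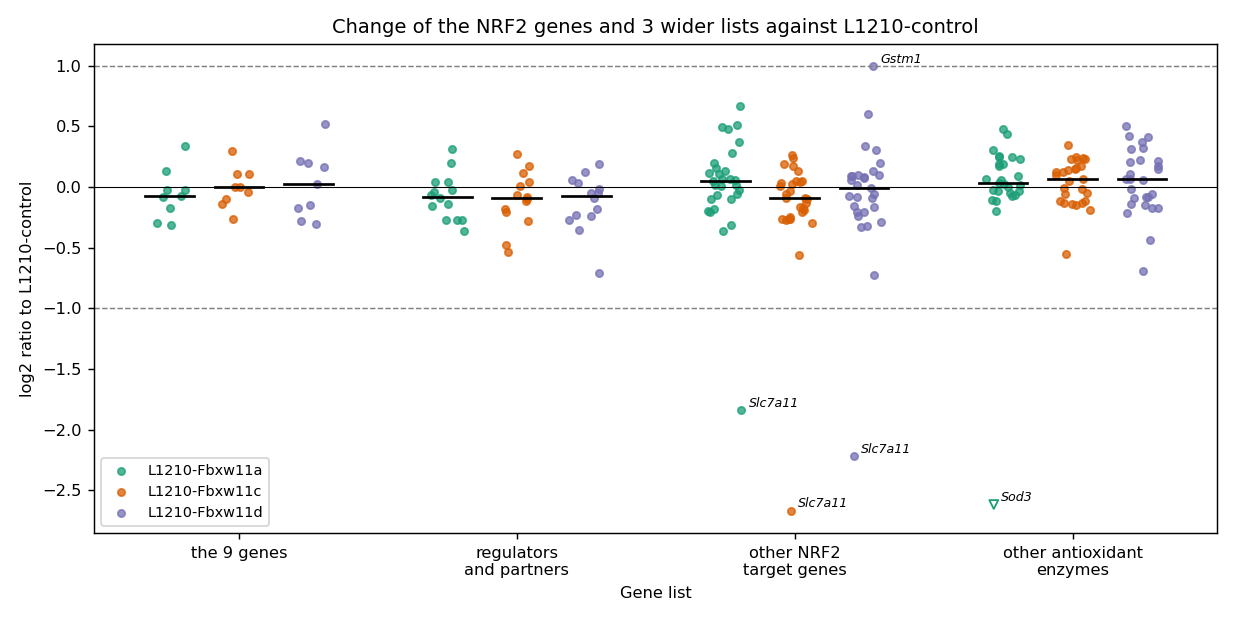
Log2 ratio to the control line (vertical axis) of the 9 NRF2 and oxidative stress genes and of 3 wider lists in the Fbxw11a line, the Fbxw11c line and the Fbxw11d line, with 1 point per gene, black bars for medians, dashed lines at 2-fold and open triangles for bounds. The medians lie within 0.10 of 0, and only Slc7a11 in 3 lines and Sod3 in the Fbxw11a line lie below the lower line.

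The medians of the other lists lay near 0. The 29 other NRF2 targets compared had median log2 ratios of 0.05, -0.09 and -0.01, and the 27 other antioxidant enzymes 0.04, 0.06 and 0.07. At 1.5-fold or more, 3 of the 70 genes passed in the Fbxw11a line, 1 in the Fbxw11c line and 6 in the Fbxw11d line, or 4.29%, 1.43% and 8.57%. These lie below the 10.8%, 9.86% and 14.7% of all genes. The shares of bright genes are no match for them. Of the genes that passed, only Sqstm1, in the Fbxw11d line, was as bright as Gclm, the dimmest of the 9 genes.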

How the data were processed

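The authors deposited the scanner output of 4 Agilent 1-colour arrays, 1 per line, with a background-corrected intensity per spot, and 1 table of the same intensity values and of log2 values they had normalized, with gene symbols and mm9 probe coordinates. Per the labels the software was Agilent Feature Extraction 9.1, and per the file headers 10.7.1.1. The normalization behind the log2 values is not given in the sources used here. For each array the 75th percentile of the processed signals of its 59305 gene spots was subtracted on the log2 scale. Outlier spots, 102 to 167 per array, were left out, and a probe's spots were averaged. A probe needed at least 0.5 of its spots well above background, on 1 or both of the arrays compared. If it had that on 1 array only, its fold is a bound, written "at least". The bound uses the dim array's own value for the probe, or the lowest value there among probes with all spots well above background if that is higher. On the scale of the control array those lowest signals were 18.1 on that array, and 14.4, 14.9 and 10.4 on the arrays of the Fbxw11a, Fbxw11c and Fbxw11d lines. A gene was taken by its brightest probe. With 1 array per line no test across samples was made, and the number of arrays limits the precision.

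The genes and lists were chosen with earlier results of these data known. Named were all 9 genes with every probe, Fbxw11, and genes of the 3 pathway lists at 2-fold or more in a line. Any other gene was picked with its values in view. The settings varied were the background correction (normexp in limma 3.58.1, with an offset of 50), the normalization (quantile, median centring or the authors' values), the filter on dim probes (none, or both arrays), the outlier spots (kept), the rule for genes with several probes (their mean) and the fold (1.5 or 3). Scaling on the spike-in RNAs was added after seeing the data. The step that calls changes was checked on simulated arrays. R 4.3.3 and Python 3.11.15 were used, with numpy 2.4.6 and pandas 2.3.3.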

Additional observations from a re-analysis of the deposited data

Results flagged for a closer look

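The log2 ratios of Nqo1 to the control line had opposite signs between lines, each larger than 2 SDs between spots at the percentile scaling. It was 0.34 in the Fbxw11a line, -0.27 in the Fbxw11c line and -0.28 in the Fbxw11d line. With the normexp background correction it was -0.16 in the Fbxw11c line and -0.14 in the Fbxw11d line. With median centring it was -0.07 in the Fbxw11d line. All were within 2 of the SDs of the percentile scaling. In the Fbxw11d line it was 0.30 on the spike-in scale. With 1 array per line the difference between lines was not tested.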

How the results depend on the processing

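With 1 array per line and 1 spot per probe, the errors are those of spots and hold no spread between cultures, and there was no replicate to leave out. No paired analysis was possible because each line had 1 array. The count of the 9 genes at 2-fold or more was 0 in all 3 lines under 10 other settings of the processing. It became 1 (Gclm) in the Fbxw11d line on the spike-in scale. Not all of the 10 settings could change these results. Every probe of the 9 genes was well above background on each array. The filters on dim probes (none, or both arrays) therefore left every ratio unchanged and tested neither the count nor the signs. A fold of 3 could not raise a count that was 0 at 2-fold. Of the 9 log2 ratios, 8 kept their sign under the 8 of those 10 settings that gave ratios, in the Fbxw11a line, 6 in the Fbxw11c line and 6 in the Fbxw11d line. Those that did not were Keap1 in the Fbxw11a line and the Fbxw11c line, Hmox1 and Gsr in the Fbxw11c line and the Fbxw11d line, and Nfe2l2 in the Fbxw11d line. On the spike-in scale 0, 4 and 4 signs of the 9 differed from the percentile scaling in the Fbxw11a line, the Fbxw11c line and the Fbxw11d line. They were Hmox1 (-0.15), Gclc (-0.05), Txnrd1 (-0.05) and Gsr (-0.16) in the Fbxw11c line, and Nfe2l2 (0.41), Nqo1 (0.30), Srxn1 (0.28) and Gsr (0.43) in the Fbxw11d line.

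Median centring moved the median of all genes by 0.21 in the Fbxw11d line, the median of the 9 genes to 0.23, that of the pathway lists to 0.20 and their count at 2-fold to 2. The spike-in scale moved the median of all genes by -0.13, -0.16 and 0.57 in the Fbxw11a line, the Fbxw11c line and the Fbxw11d line, that of the 9 genes to -0.20, -0.16 and 0.60, and that of the pathway lists to -0.11, -0.21 and 0.57, with 5 list genes at 2-fold in the Fbxw11d line. Averaging the probes of a gene, the median of the 9 genes in the Fbxw11d line was -0.17, through Hmox1, and the pathway count was 3, 2 and 2 in the Fbxw11a line, the Fbxw11c line and the Fbxw11d line, with Gstm3 among the genes in the Fbxw11a line. The filter on both arrays removed Sod3 and left 1 pathway gene in the Fbxw11a line. A fold of 1.5 gave 6 pathway genes in the Fbxw11d line.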
